A study of Saccharomyces cerevisiae and Schizosaccharomyces pombe with 8 samples.

Results

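Ribosome biogenesis genes of the budding yeast Saccharomyces cerevisiae were examined in wild-type cells grown in minimal medium and in rich medium. The members are all nuclear genes whose symbol begins with UTP, NOP, RRP, NOG, NSA or RLP, together with IMP3, IMP4 and NIP7, and they number 62 of 6413 nuclear genes in the R64 annotation. The series holds 8 libraries that record where polyadenylated RNA ends, each read marking the cleavage position at the 3′ end of a transcript. The 4 budding yeast libraries, 2 from minimal and 2 from rich medium, are used here, while the 4 libraries of the fission yeast Schizosaccharomyces pombe were not analysed here. All 4 carry the wild-type genotype. The labels name neither the strain, the recipe of either medium, the stage of growth nor whether the libraries of a medium came from separate cultures, so p-values measure only the spread between these libraries, which may be technical.

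Ribosomes are assembled in the nucleolus from a long precursor RNA made by RNA polymerase I. The small subunit processome, which contains the UtpA and UtpB complexes and the U3 small nucleolar RNA, folds and cuts the part that becomes the small subunit, and a separate chain of factors matures the large subunit. The genes for these factors are known for being regulated together with growth in this yeast, through the promoter elements PAC and RRPE.

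PAC is the motif GATGAG, searched on both strands, and RRPE was searched as AAAATTTT, which reads the same on both strands. The letters of the motifs do not allow them to overlap each other. In the 250 nt before the start codon, PAC was present in 51 of the 62 members (82.3%), against 17.03% of 6001 promoters of all coding genes. RRPE was present in 39 members (62.9%), against 8.65% of all promoters. Both were present in 33 members (53.2%), against 4.08%, and neither in 5 members (8.07%), against 78.4%. The members without either motif in this window were RRP42, RRP45, RRP46, UTP22 and UTP30, of which the first 3 code for subunits of the exosome, the complex that degrades and trims RNA from its 3′ end. The windows are those before the start codon, and neighbouring genes can share one. Such a match is a run of letters and was not tested as a binding site.

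The promoters of the 2 genes with the largest change in each direction in minimal medium, and of the gene with the largest rise among those that hold both motifs, are shown 5′ to 3′ on the coding strand of the gene, with the motifs in capitals (R64). RRP17 lies at chrIV:1294693-1295400 on the plus strand, and its window is chrIV:1294443-1294692. NOP6 lies at chrIV:77289-77966 on the minus strand, and its window is chrIV:77967-78216. NOP10 lies at chrVIII:241664-241840 on the plus strand, with the window chrVIII:241414-241663, and there the PAC motif stands on the opposite strand.
RRP17: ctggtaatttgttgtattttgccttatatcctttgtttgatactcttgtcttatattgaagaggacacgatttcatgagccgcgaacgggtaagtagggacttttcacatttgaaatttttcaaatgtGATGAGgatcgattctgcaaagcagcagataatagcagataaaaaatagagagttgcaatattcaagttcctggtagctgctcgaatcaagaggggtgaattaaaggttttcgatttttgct
NOP6: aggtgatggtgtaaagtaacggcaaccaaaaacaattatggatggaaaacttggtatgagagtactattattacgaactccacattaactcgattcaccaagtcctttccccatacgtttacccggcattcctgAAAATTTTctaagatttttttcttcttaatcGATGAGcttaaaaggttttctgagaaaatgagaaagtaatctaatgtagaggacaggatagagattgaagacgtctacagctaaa
NOP10: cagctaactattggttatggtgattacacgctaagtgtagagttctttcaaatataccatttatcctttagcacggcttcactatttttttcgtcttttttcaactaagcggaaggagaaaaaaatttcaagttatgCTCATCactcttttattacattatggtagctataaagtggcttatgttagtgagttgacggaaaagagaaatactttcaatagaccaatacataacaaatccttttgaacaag

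Minimal medium gave libraries of 1174191 and 1253021 reads, against 2057269 and 1558011 from rich medium, and the members took 1.34% to 1.55% of nuclear reads in each. Reads were assigned to a gene from its start codon to 500 nt past its stop codon, on the same strand, and levels are given as CPM, counts per 1e6 reads after scaling by the trimmed mean of M values (TMM). A transcript gives 1 end whatever its length, so levels of different genes were compared without dividing by length. Since CPM is a share of a library, less RNA of a gene per cell and more RNA of all others cannot be told apart. Across 4644 genes the replicates correlated at 0.981 in minimal and 0.977 in rich medium, but not as closely as counting error would allow: chi-square divided by its degrees of freedom came to 2.42 between the minimal and 9.59 between the rich medium replicates. By this measure the rich medium replicates lay further apart than the minimal medium ones. The measure grows with read depth, however, and the rich medium libraries were the deeper ones.

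Expression of the members was then compared between the media. In minimal medium 12 of the 60 members tested were higher and 3 were lower at an adjusted p under 0.05, and 45 were not called (edgeR's quasi-likelihood test, Benjamini-Hochberg over all 4644 genes). The 12 higher members make up 20% of those tested, against 17.7% of all genes that were higher, and the 3 lower members 5%, against 15.8% of all genes that were lower. The share of higher members thus lay near the share of all genes. IMP4 and RRP45 had too few reads to be tested. The log2 changes of the members, minimal minus rich medium, ran between -1.10 and 1.32 with a median of 0.11 (quartiles -0.14 and 0.49), against a median of -0.01 for all genes (quartiles -0.45 and 0.45). In 57 of the 60 the change was within 2-fold. A fit with 1 library left out leaves that medium without a replicate, so its spread comes from the other medium alone. Such fits are given by log2 change only. The median log2 change of the members was 0.137 without replicate 1 of minimal medium and 0.145 without its replicate 2. It was 0.307 without replicate 1 of rich medium and 0.083 without its replicate 2. DESeq2 called 7 members higher and 3 lower, and the shares of all genes it called were not counted.

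In 23 of the 60 tested members both minimal medium libraries lay above both rich medium libraries (38.3%), as did those of 33.4% of all genes. In 12 members both lay below (20%), as in 33% of all genes, and in the other 25 the libraries of the media overlapped. For a called member such separation largely follows from the call on these same libraries, so it is no added support.

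**Figure D1:**
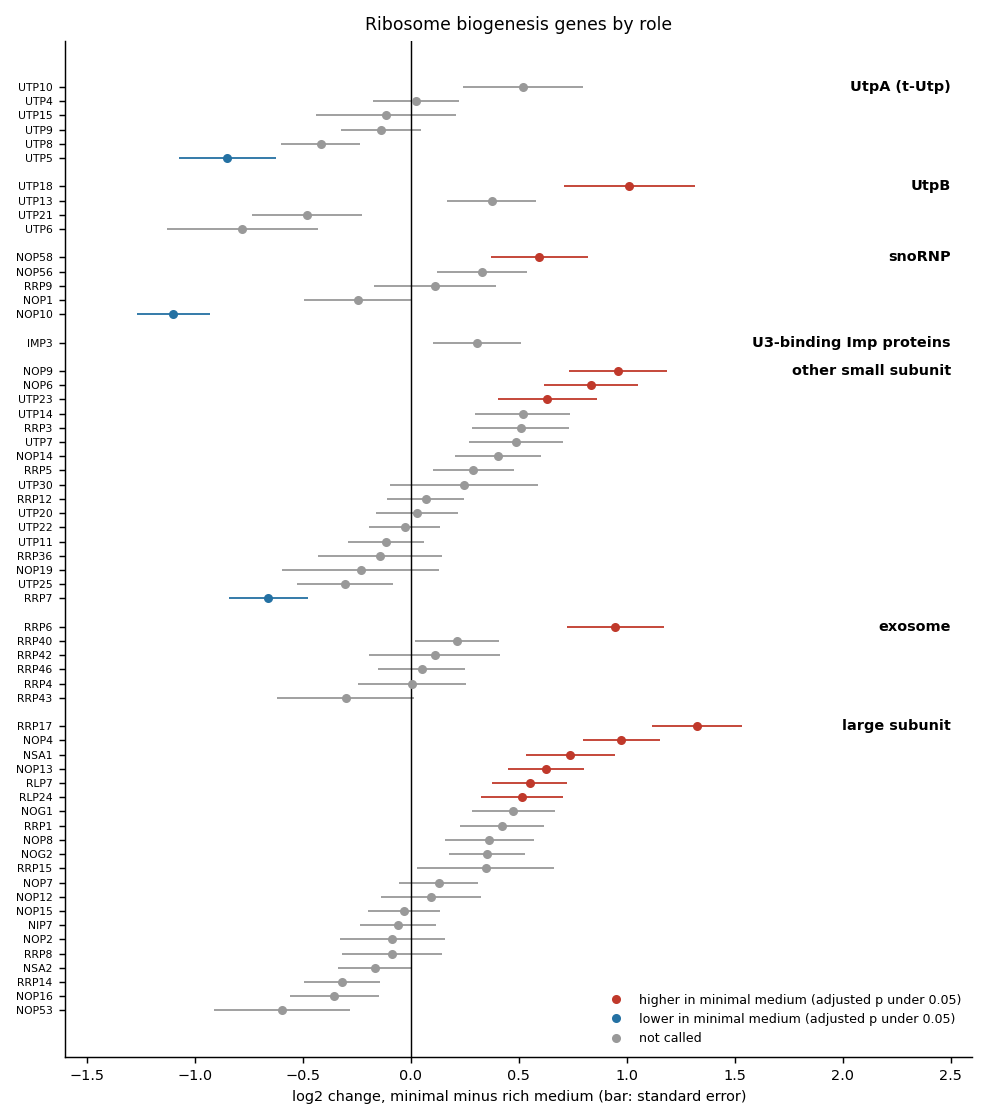
Log2 change (minimal minus rich medium) of the 60 members tested, with the standard error as a bar, grouped by role. The 12 red points are higher in minimal medium, the 3 blue points (NOP10, UTP5 and RRP7) lower, and the 45 grey points were not called.

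Of the 21 large subunit factors tested, 6 were higher (28.6%, against the 17.7% of all genes) and the other 15 were not called, with a median log2 change of 0.35. RRP17, for a 5′ to 3′ exonuclease of large subunit maturation, had 128 and 119 CPM in minimal medium, against 55.7 and 42.1 CPM in rich medium. The libraries of the media did not overlap, and the gene averaged 124 ± 5.86 CPM in minimal and 48.9 ± 9.63 CPM in rich medium (SD, n = 2 each). This was the largest rise of the members (log2 change 1.32, SE 0.21, edgeR adjusted p = 2.19e-05).

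NOP4, for an RNA-binding protein needed for large subunit assembly, lay at chrXVI:469939-471996 and was among the more abundant members. It had 863 and 865 CPM in minimal medium, against 514 and 364 CPM in rich medium, which is 1.97-fold (log2 change 0.97, SE 0.18, edgeR adjusted p = 0.000128). The minimal medium libraries were nearly equal, and the spread came from the rich medium ones. NSA1, for a WD-repeat protein of pre-60S particles, had 81.8 and 96.4 CPM in minimal medium, against 53.2 and 53.6 CPM in rich medium. Its log2 change was 0.74 (edgeR adjusted p = 0.0076), and it was 0.857 without minimal medium replicate 1 and 0.622 without replicate 2. The call was lost with DESeq2 (adjusted p = 0.0571).

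NOP13, for a nucleolar RNA-binding protein found with pre-60S particles, had 297 and 325 CPM in minimal medium, against 223 and 179 CPM in rich medium. RLP7, for a protein related to the ribosomal protein Rpl7 that binds the internal transcribed spacer of the large subunit precursor, had 294 and 267 CPM in minimal medium, against 187 and 196 CPM in rich medium. Neither gene had overlapping libraries, and their log2 changes were 0.63 (edgeR adjusted p = 0.00782) and 0.55 (edgeR adjusted p = 0.0152). These changes were 0.696 and 0.486 without minimal medium replicate 1, in that order, and 0.566 and 0.626 without replicate 2.

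RLP24, for the protein that holds the place of Rpl24 on the particle until it reaches the cytoplasm, was the most abundant member. It had 3252 and 2988 CPM in minimal medium, against 2634.5 and 1725 CPM in rich medium, a log2 change of 0.52 (SE 0.19, edgeR adjusted p = 0.0354). Both minimal medium libraries were higher than both rich medium libraries. The log2 change was 0.23 without rich medium replicate 2 and 0.855 without rich medium replicate 1. It was 0.46 without minimal medium replicate 1 and 0.58 without minimal medium replicate 2. With DESeq2 the change was 0.51 (adjusted p = 0.0693), and without TMM it was 0.43 (edgeR adjusted p = 0.0696).

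The other large subunit factors had log2 changes between -0.60 and 0.47. NOG1, for a GTPase of early pre-60S particles, had 112 and 126 CPM in minimal medium, against 88.1 and 83.0 CPM in rich medium (log2 change 0.47, edgeR adjusted p = 0.059). NOP15, for an RNA-binding protein of the same particles, had 1776 and 1611 CPM in minimal medium, against 1799 and 1658 CPM in rich medium. NSA2 and NIP7, both for factors of pre-60S particles, likewise had overlapping libraries, NSA2 with 1529 and 1601 CPM in minimal medium, against 1920.5 and 1595 CPM in rich medium. The lowest of these was that of NOP53 (edgeR adjusted p = 0.149), whose protein brings the helicase Mtr4 to the particle.

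Of the 6 UtpA genes, whose proteins bind the precursor first, UTP5 was lower (16.7%, against 15.8% of all genes). The other 5 were not called, and the median log2 change of the 6 was -0.13. UTP10, for the largest protein of the complex, had 29.7 and 47.8 CPM in minimal medium, against 27.9 and 26.2 CPM in rich medium. UTP8 had 154 and 135 CPM in minimal medium, against 197.5 and 188 CPM in rich medium (log2 change -0.42, edgeR adjusted p = 0.0748). The reads behind the UTP5 call are described further on.

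Of the 4 UtpB genes 1 was higher (25%, against 17.7% of all genes), and the median log2 change was -0.05. UTP18, whose protein brings Mtr4 to the processome, had 31.5 and 26.4 CPM in minimal medium, against 13.4 and 15.3 CPM in rich medium, 2.02-fold (log2 change 1.01, SE 0.30, edgeR adjusted p = 0.011). The UTP18 call was lost with DESeq2 (adjusted p = 0.115). Its log2 change was 0.890 without minimal medium replicate 1 and 1.141 without replicate 2. UTP6 had 10.8 and 9.38 CPM in minimal medium, against 16.9 and 17.9 CPM in rich medium, and did not pass the test (log2 change -0.78, edgeR adjusted p = 0.0875). Subunits of this complex therefore lay on both sides of 0.

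The small nucleolar ribonucleoproteins guide chemical modification of ribosomal RNA. Of their 5 genes under the rule, 1 was higher and 1 lower (20% each, against 17.7% and 15.8% of all genes). NOP58, for a core protein of the box C/D class, had 61.2 and 63.1 CPM in minimal medium, against 40.3 and 42.1 CPM in rich medium (log2 change 0.59, edgeR adjusted p = 0.0429). The call was lost with DESeq2 (adjusted p = 0.197) and without TMM (edgeR adjusted p = 0.0875). It was also lost within 250 nt of the stop codon (edgeR adjusted p = 0.111) and with reads past the stop codon alone (edgeR adjusted p = 0.0579). The log2 change of NOP58 was 0.622 without minimal medium replicate 1 and 0.577 without replicate 2. Its partner genes NOP56 and NOP1 had overlapping libraries, NOP1 being the gene of the methyltransferase fibrillarin. RRP9, for a U3-specific protein, had a log2 change of 0.11.

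NOP10 codes for a small core protein of the box H/ACA class, which guides pseudouridylation. It had 522 and 619 CPM in minimal medium, against 1151 and 1293 CPM in rich medium. Both minimal medium libraries lay below both rich medium libraries, and the gene averaged 570.4 ± 69.1 CPM in minimal and 1222 ± 99.99 CPM in rich medium (SD, n = 2 each). This was the largest fall of the members (log2 change -1.10, SE 0.17, edgeR adjusted p = 1.83e-05). Its main cleavage site, 160 nt past the stop codon, held 87.1% and 87.7% of its reads in minimal medium, against 87.7% and 85.5% in rich medium, and these shares overlapped between the media.

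**Figure D2:**
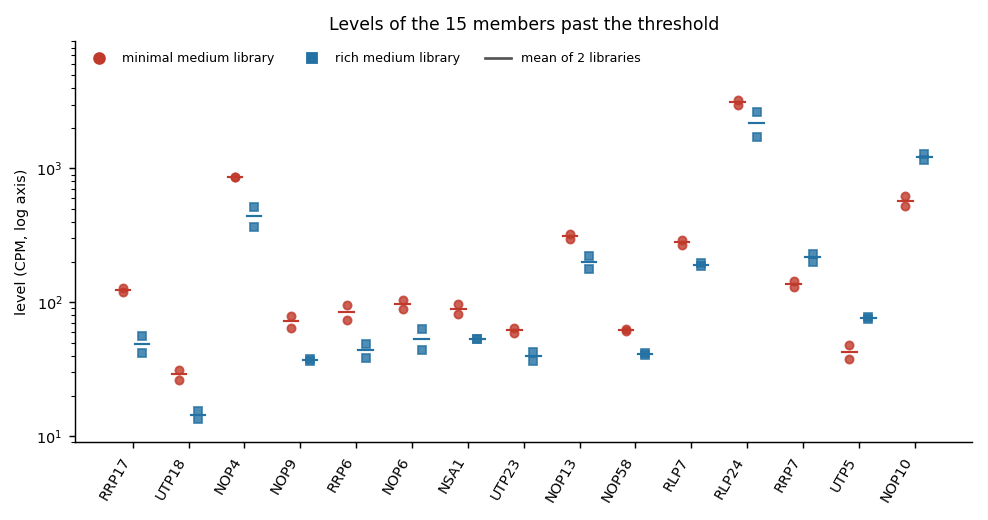
Level (CPM, log axis) of the 15 members past the threshold in each minimal medium library (circles) and each rich medium library (squares), with the mean of the 2 libraries as a line. The libraries of the media do not overlap in any of the 15, as for NOP10 with 522 and 619 CPM in minimal medium, against 1151 and 1293 CPM in rich medium. The 15 were chosen by a test on these same libraries, so the separation is no added support.

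Of 17 other small subunit factors, 3 were higher (17.6%, against 17.7% of all genes) and 1 lower (5.88%, against 15.8%). Their median log2 change was 0.25. NOP9, for a repeat protein that binds the 20S precursor near its cleavage site, had 79.1 and 64.8 CPM in minimal medium, against 36.3 and 37.7 CPM in rich medium (log2 change 0.96, edgeR adjusted p = 0.00192). NOP6, for an RNA-binding protein of early processing, had 103 and 89.6 CPM in minimal medium, against 63.2 and 44.0 CPM in rich medium (log2 change 0.83, edgeR adjusted p = 0.00426). UTP23, whose protein takes part in the release of the snR30 small nucleolar RNA, had 59.4 and 64.0 CPM in minimal medium, against 42.8 and 36.4 CPM in rich medium. Its log2 change was 0.63 (edgeR adjusted p = 0.0341), and it was 0.692 without minimal medium replicate 1 and 0.585 without replicate 2. The call was lost with DESeq2 (adjusted p = 0.17) and without TMM (edgeR adjusted p = 0.0687). In each of these genes both minimal medium libraries were above both rich medium libraries. The log2 changes of NOP9 and NOP6 were 0.816 and 0.735 without minimal medium replicate 1, and 1.104 and 0.944 without replicate 2.

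RRP7 was the lower member of that group. It had 129.5 and 144 CPM in minimal medium, against 201.5 and 232 CPM in rich medium (log2 change -0.66, SE 0.18, edgeR adjusted p = 0.00665). The log2 change of RRP7 was -0.579 without minimal medium replicate 1 and -0.733 without replicate 2. Its protein works in the UtpC complex with the products of UTP22 and RRP36, which were not called: UTP22 had 754 and 826 CPM in minimal medium, against 775 and 836.5 CPM in rich medium. IMP3, whose protein helps the U3 RNA pair with the precursor, had a log2 change of 0.31 (edgeR adjusted p = 0.262).

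The 6 exosome genes tested include 1 higher gene (16.7%, against 17.7% of all genes), and their median log2 change was 0.08. RRP6, for the nuclear 3′ to 5′ exonuclease that joins the core exosome, had 96.2 and 74.2 CPM in minimal medium, against 49.3 and 38.3 CPM in rich medium (log2 change 0.95, SE 0.22, edgeR adjusted p = 0.00183). The log2 change of RRP6 was 0.758 without minimal medium replicate 1 and 1.134 without replicate 2. The core subunit genes RRP4, RRP40, RRP42, RRP43 and RRP46 were not called, with log2 changes between -0.30 and 0.21. RRP45, also a core subunit gene, had 3.60 and 4.27 CPM in minimal medium, against 4.48 and 4.47 CPM in rich medium, and was the second lowest member after IMP4, with NOP19 next at 14.4 and 10.2 CPM in minimal medium, against 17.4 and 10.9 CPM in rich medium. IMP4 had 2.70 and 4.27 CPM in minimal medium, against 1.49 and 2.55 CPM in rich medium.

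Levels were spread unevenly. The 5 most abundant members, RLP24, NOP15, NSA2, NIP7 and NOP10, held 54.6% and 53.0% of the summed CPM of all members in minimal medium, against 58.4% and 56.3% in rich medium. All but NOP10 code for large subunit factors. The median member had 75.8 CPM, against 41.0 CPM for the median gene tested, and 4 members were over 1000 CPM while 9 were under 20 CPM. Coding length and level had a Spearman correlation of -0.02 across the members and -0.23 across 4529 coding genes, which is a description across genes that share the 4 libraries. The sum over the members was 15634 and 15566 CPM in minimal medium, against 15875 and 13360 CPM in rich medium. The media overlapped in this sum, also without RLP24, where it was 12383 and 12578 CPM in minimal medium, against 13240.5 and 11634 CPM in rich medium.

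Other genes of the pathway, outside the symbols of the rule, were counted from lists of their roles. The shares below stand against 17.7% higher and 15.8% lower over all genes tested. Of 35 further genes on the small subunit list 12 were higher (34.3%) and 2 lower (5.71%), with a median log2 change of 0.46. ESF2, for a processome protein, had 55.8 and 64.8 CPM in minimal medium, against 16.4 and 22.3 CPM in rich medium (log2 change 1.65, edgeR adjusted p = 2.67e-05). PWP2 of UtpB had a log2 change of 1.58 (edgeR adjusted p = 0.000959) at low levels. It had 21.58 and 22.18 CPM in minimal medium, against 6.965 and 7.657 CPM in rich medium. The lower ones were LRP1, with a log2 change of -0.91 (edgeR adjusted p = 0.00311), and SQS1, for a cofactor of the helicase Prp43, at -0.68 (edgeR adjusted p = 0.0478). LRP1 codes for the partner of Rrp6, an exosome cofactor, and was counted on both lists. LRP1 thus lay on the other side of 0 from RRP6.

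Of 10 further genes for snoRNP proteins 5 were higher (50%, against 17.7% of all genes) and the other 5 were not called. Their median log2 change was 0.40. NAF1, for an assembly factor of the box H/ACA class to which NOP10 belongs, had 204 and 205 CPM in minimal medium, against 71.2 and 71.5 CPM in rich medium (log2 change 1.52, edgeR adjusted p = 7.44e-07). SNU13, for a box C/D core protein, had 541 and 532 CPM in minimal medium, against 179.6 and 286 CPM in rich medium. Its log2 change was 1.21 (edgeR adjusted p = 2.17e-05). NAF1 and NOP10 thus moved to opposite sides.

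Of 56 further large subunit genes 18 were higher (32.1%) and 3 lower (5.36%), with a median log2 change of 0.34. LSG1, for a cytoplasmic GTPase, had a log2 change of 1.37 and REI1, for a cytoplasmic maturation factor, 1.17 (edgeR adjusted p = 0.000735 and 0.000117). On the other side LOC1 had -0.55 and CGR1 -0.52 (edgeR adjusted p = 0.0265 and 0.0429). Of 25 subunit genes of RNA polymerases I and III 5 were higher and 5 lower (20% each), with a median of 0.09. RPA43 of polymerase I and RPC31 of polymerase III had log2 changes of 1.27 and 1.25, and RPC17 and RPC11 of polymerase III had -1.05 and -1.02 (edgeR adjusted p between 0.000163 and 0.000272).

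Of 11 exosome cofactor genes 3 were higher (27.3%) and 1, LRP1 again, was lower (9.09%). TRF5 and MTR4, for the polymerase and the helicase of the TRAMP complex, had log2 changes of 0.75 and 0.78 (edgeR adjusted p = 0.00114 and 0.0266). Of 17 regulator genes 3 were higher (17.6%) and 1 lower (5.88%), the former near the 17.7% of all genes. SCH9, for a kinase that signals nutrients, and HMO1, for a protein that binds ribosomal DNA, had log2 changes of 0.94 and 0.65, and REB1, for a DNA-binding factor, -0.88 (edgeR adjusted p = 0.0447, 0.00598 and 0.0314). The levels of SCH9 were low, with 17.98 and 18.76 CPM in minimal medium, against 6.965 and 12.76 CPM in rich medium.

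Set against the promoter motifs, 5 of the 32 tested members with both PAC and RRPE were higher and 1 was lower, with a median log2 change of 0.21. Over all 222 tested genes with both motifs, members included, 64 were higher and 17 lower, with a median of 0.26. Over the 3508 tested genes with neither, 590 were higher and 523 lower, with a median of -0.03. The 4 tested members with neither motif had 0 higher and 0 lower calls, with a median of 0.08. Of the 12 higher members 5 held both motifs, 5 held PAC alone, as RRP17 did, and 2 held RRPE alone. Among all 62 members 33 held both and 5 held neither, so a called member would mostly hold a motif in any case. NOP10, the member with the largest fall, also held PAC.

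UTP5 codes for a UtpA protein at chrIV:1267471-1269402 on the plus strand, and most of its reads did not lie at the end of the gene. Its first 60 bases, chrIV:1267471-1267530, held 331 reads. Of these, 223 lay at the 10 positions marked here in capitals, which have 10 or more reads each over the 4 libraries.
UTP5: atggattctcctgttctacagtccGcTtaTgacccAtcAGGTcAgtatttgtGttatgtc

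These first 60 bases held 33.3 and 31.6 CPM in minimal medium, against 70.2 and 74.0 CPM in rich medium. The 500 nt past the stop codon held 16 and 6 reads (14.4 and 5.12 CPM) in minimal medium, against 11 and 1 reads (5.47 and 0.638 CPM) in rich medium. These few ends overlapped between the media and did not show the fall seen near the start codon. A further 5 and 7 reads in minimal medium, against 32 and 18 in rich medium, lay in the 60 nt before the start codon and were not part of the gene's count. The upstream gene, NCB2, stands on the other strand, so these reads are not its ends. Reads before the stop codon made up 69.8% and 86.4% of the UTP5 count in minimal medium, against 92.8% and 99.2% in rich medium. The count of UTP5 was 47.7 and 37.5 CPM in minimal medium, against 75.6 and 77.8 CPM in rich medium (log2 change -0.85, SE 0.22, edgeR adjusted p = 0.00467). The call therefore rests on ends near the start codon, and with reads past the stop codon alone UTP5 had too few to be tested. The log2 change of UTP5 was -1.024 without minimal medium replicate 1 and -0.678 without replicate 2.

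**Figure D3:**
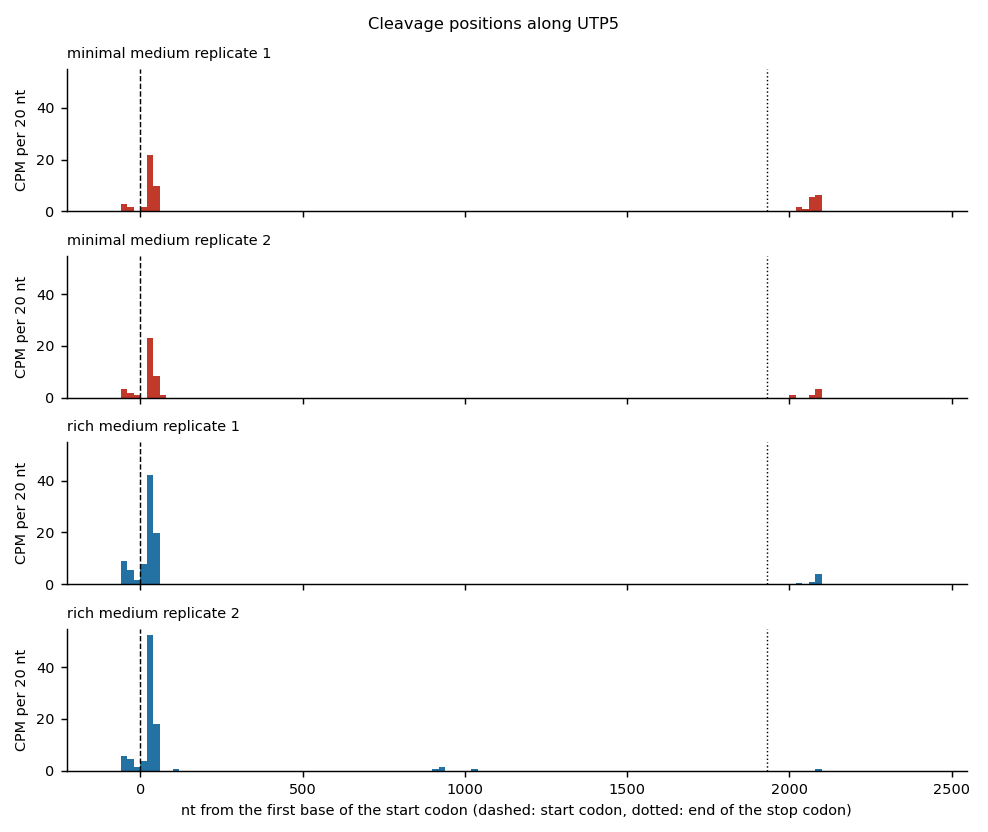
Cleavage positions along UTP5 in the 2 minimal medium libraries (top) and the 2 rich medium libraries (bottom), as CPM per 20 nt against the distance from the start codon (dashed line), with the stop codon dotted. In each library the tallest bars stand just past the start codon, where the first 60 nt hold 33.3 and 31.6 CPM in minimal medium, against 70.2 and 74.0 CPM in rich medium.

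Among the 60 members with enough reads, 2 had at least 10% of them in the first 150 nt of the frame, against 131 of 3801 genes (3.45%). The other was RRP8, for a methyltransferase of the large subunit RNA, where 18.4% and 22.4% of reads in minimal medium, against 21.2% and 39.2% in rich medium, lay before the stop codon. Its upstream neighbour STN1 lies 147 nt away on the same strand, and the reads near the start of RRP8 cannot be told apart from ends of STN1. The same holds for 55 reads near the start of RRP1, downstream of SLU7.

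UTP20, for a very long scaffold protein of the processome, held its earlier ends within the frame instead. Reads before the stop codon made up 6.58% and 6.62% of its count in minimal medium, against 19.8% and 23.0% in rich medium. They number 113 over the 4 libraries, and 51 of them lie at 1 site, at position 230323 of chromosome II, which is -4794 nt from the stop codon in a frame of 7482 nt. That site held 2.63% and 4.41% of the reads in minimal medium, against 9.73% and 8.56% in rich medium.

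The largest shares of reads before the stop codon after UTP5 were those of UTP6 and UTP30. UTP6 had 25% and 63.6% in minimal medium, against 20.6% and 60.7% in rich medium, from 12 and 11 reads and 34 and 28 reads in all, and the libraries of each medium lay far apart. UTP30 had 22.7% and 20% in minimal medium, against 33.3% and 31.6% in rich medium, from 22 and 15 reads and 30 and 19 reads. Of the 62 members 23 had no read before the stop codon, and 8 had over 10%. The share of all genes with such values was not counted. Members with few reads are included, such as IMP4 with 15 in all. Over all members together the share was 0.754% and 0.762% in minimal medium, against 1.17% and 1.59% in rich medium. Without UTP5 and UTP20 it was 0.489% and 0.509%, against 0.572% and 0.814%, and over all coding genes 1.60% and 1.66%, against 1.96% and 2.07%.

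Past the stop codon, the mean end position moved little between the media in most members. In the 57 members that averaged 20 reads or more per library there, the median of the read-weighted end lay 126 and 128 nt past the stop codon in minimal medium, against 127 and 123 nt in rich medium. Over 3599 genes it lay at 135 and 134 nt in minimal medium, against 134 and 133 nt in rich medium. In 53 members (93%) the mean end moved by under 10 nt between the media, against 86.5% of all genes. The exceptions were NOP19, NOP9, NOP53 and RRP9. NOP53 and RRP9 were named after their values were seen, while NOP9 is named for its expression call. The end of NOP9 lay at 213.5 and 204 nt in minimal medium, against 202 and 184 nt in rich medium.

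The longest ends were those of IMP3, NOP19 and NOP14. IMP3 ended at 327.5 and 334 nt in minimal medium, against 339 and 339.6 nt in rich medium. NOP19, for a small subunit factor, ended at 342 and 355 nt in minimal medium, against 323.5 and 257 nt in rich medium, from 12 to 35 reads per library. NOP14, for a processome protein, ended at 279 and 281 nt in minimal medium, against 271 and 273 nt in rich medium. The shortest were NOP8, a large subunit gene, at 46.5 and 54.3 nt in minimal medium, against 44.9 and 47.2 nt in rich medium, then UTP9 at 61.1 and 61.6 nt in minimal medium, against 58.4 and 65.3 nt in rich medium, and UTP21 at 66.5 and 62.5 nt in minimal medium, against 60.4 and 57 nt in rich medium. NOP8 lies end to end with RIB4 on the other strand.

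**Figure D4:**
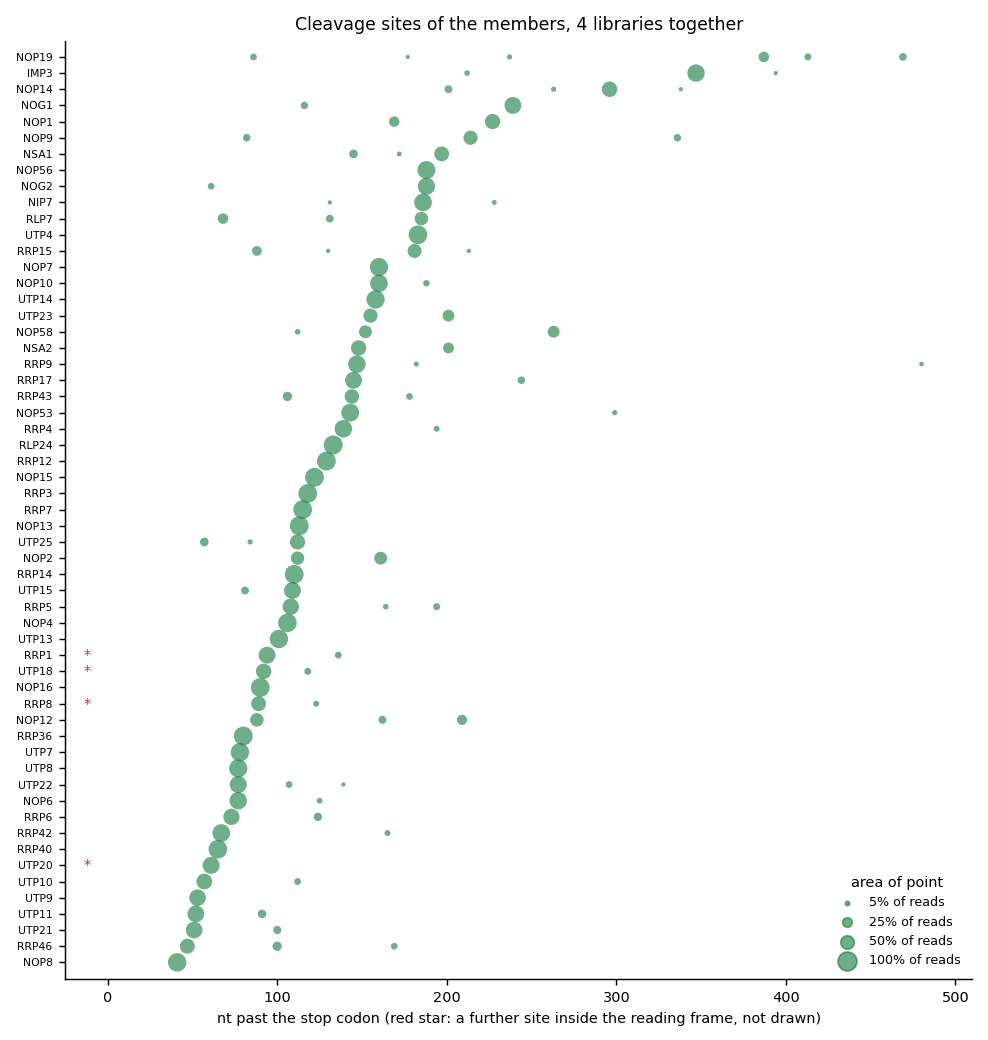
Cleavage sites past the stop codon of the 57 members, with the area of a point showing its share of the reads of that gene in the 4 libraries together, ordered by the main site. Main sites run between 41 nt (NOP8) and 387 nt (NOP19) past the stop codon, and stars mark the 4 genes with a further site inside the reading frame, which is not drawn.

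Positions within 24 nt of the most used one were joined as a site, and sites with at least 5% of a gene's reads were kept. Of 60 members 20 had 1 site (33.3%, against 29.3% of all genes), 20 had 2 and 20 had 3 or more. RLP24 had the most uniform end, with 99.9% of its reads at a single site 133 nt past the stop codon. NOP13 and RRP12 followed with 99.2% and 98.9%. Yeast ends are known to be set in part by an efficiency element upstream of the cleavage site. Of the 59 main sites past the stop codon, 26 (44.1%) held TATATA within the 80 nt before them on the transcript strand, against 42.3% of 3671 genes, and 42 (71.2%) held TATATA itself or a close variant of it, namely TATGTA, the form written TACATA or the form written TACGTA, against 67.8%. The 4 hexamers can overlap one another, and a site was counted once. NOP15 and NIP7 held none of the 4 in that window.

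The stretches around the element are shown for the 3 genes with the most uniform ends and for NOP10. Only the match nearest the main site is in capitals, and others stay in lower case, such as the TATGTA before it in RRP12. The last base of the capitals lies 33 nt before the main cleavage position in RLP24 (chrXII:167219-167248, plus strand), 29 nt in NOP13 (chrXIV:307305-307334, minus strand), 65 nt in RRP12 (chrXVI:533459-533488, plus strand) and 59 nt in NOP10 (chrVIII:241924-241953, plus strand).
RLP24: tattatttacatTACATAacattacaataa
NOP13: attcatgttttaTATATAcattgtataacc
RRP12: agatatgtaTATATAagaatattataatac
NOP10: attttctagaccTACATAaatttgataagt

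Site choice was compared between the media in the 37 members whose 2 most used sites together averaged 20 reads or more over the libraries. edgeR called 0 of them toward the distal and 0 toward the proximal site, against 1.71% and 0.518% of 2510 genes, with 5 of the 37 members at an unadjusted p under 0.05, against 350 of the 2510 genes. DESeq2 also called 0, with 2 at an unadjusted p under 0.05, and its shares of all genes were not counted. The median log2 change of the distal over proximal ratio was 0.09 in the members and 0.15 in all genes.

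The smallest p was that of UTP20, whose distal site, 61 nt past the stop codon, took 97.1% and 95.3% of the reads of both sites in minimal medium, against 88.4% and 89.9% in rich medium (log2 change of the ratio 1.63, SE 0.52, edgeR adjusted p = 0.0655). In UTP5 the distal site, 165 nt past the stop codon, took 16.3% and 9.52% in minimal medium, against 6.29% and 0.862% in rich medium (log2 change 1.89, edgeR adjusted p = 0.132). The UTP5 value depended on how positions were joined: within 48 nt it became the only call among the members (log2 change 2.56, edgeR adjusted p = 0.0247), and within 12 nt the log2 change was 0.12 (edgeR adjusted p = 0.945). In NOP14 the site 296 nt past the stop codon took 83.9% and 86.5% in minimal medium, against 75.4% and 73.4% in rich medium, with the other site at 201 nt (log2 change 0.98, edgeR adjusted p = 0.187). With positions joined within 12 nt the NOP14 change turned to -0.07 (edgeR adjusted p = 0.967). NOP53 and NOP2, named after their values were seen, were the remaining ones under an unadjusted p of 0.05. NOP53 went the other way from the other 4: its distal site, 299 nt past the stop codon, took 0% and 0% in minimal medium, against 4.26% and 20.6% in rich medium (log2 change -4.42, SE 1.85, edgeR adjusted p = 0.214), and its libraries held 15 to 48 reads past the stop codon. In NOP2, for a methyltransferase of the large subunit RNA, the distal site took 67.4% and 52.1% in minimal medium, against 38.2% and 45.8% in rich medium.

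Some members used both of their main sites in every library. NSA2 used its distal site, 201 nt past the stop codon, for 33.7% and 35.0% of reads in minimal medium, against 32.8% and 33.1% in rich medium. NOP58 used sites at 152 and 263 nt, with 51.7% and 40.9% distal in minimal medium, against 41.3% and 51.7% in rich medium. The replicates of NOP58 differed by more than the media did.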

How the data were processed

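The authors deposited counts, that is, the number of reads at each cleavage position and strand, without any recorded normalization. Per the labels' protocols, the 3′ ends of poly(A)+ RNA were amplified from total RNA. The aligner was Bowtie2 and the assembly ASM294v2, a fission yeast assembly, per the submitters' processing notes. The build for budding yeast is not given in the sources used here. The coordinates were checked against R64: of 18999 positions with 20 reads or more, 0.221% were followed by an A, against 25.9% with an A at base 9.

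Genes took same-strand reads from the start codon to 500 nt past the stop codon, or up to the start codon of the next gene on that strand. Expression and site use were tested with edgeR 4.0.16 (quasi-likelihood, TMM, filterByExpr) in R 4.3.3, adjusted by Benjamini-Hochberg over all genes tested, with DESeq2 1.42.0 as an alternative. The fits were tested on simulated data. For expression these were drawn with the spread between libraries estimated from the real data, so they do not check that spread. Log2 changes are minimal minus rich medium. Promoters were read from the R64 genome. Replicate numbers were not taken as pairs, since same-numbered libraries deviated together at a correlation of only 0.0625.

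The members, roles and lists were chosen with earlier results of these data known. Named with values are members past the threshold, those with the 3 smallest p in site use, the 3 highest and lowest levels, the 3 longest and shortest ends and the 3 largest shares before the stop codon, and from each other list up to 2 called genes in each direction. Others are given as examples of their group.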

Additional observations from a re-analysis of the deposited data

How the results depend on the processing

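Over 149 alternatives for the 15 members past the threshold, the direction of the log2 change never turned. Calls are compared only in the alternatives that used all 4 libraries. There NSA1, UTP18, RLP24, UTP23 and NOP58 each lost the call in at least 1 alternative. The other called members, RRP17, NOP10 and NOP4 among them, kept theirs wherever they were tested. The count of higher members, 12, was 7 with DESeq2 and 3 to 20 with 1 library left out. The count of lower members, 3, was 1 to 8 with 1 library left out. The median log2 change, 0.11, was 0.083 to 0.307 with 1 library left out and 0.02 without TMM. With the replicate block, 15 members were higher and 3 lower, and 0 and 0 in site use. The shares of all genes called were not counted under these alternatives, so a change in a count is not a result about the members. In site use 1 member, UTP5, was called distal with sites joined within 48 nt, while within 12 nt UTP5 was at 0.12 and NOP14 turned to -0.066. The difference in median end, 1.89 nt, was -0.08 nt within 250 nt of the stop codon and -0.06 to 3.84 nt with 1 library left out. The difference in the share of reads before the stop codon, -0.618 percentage points, was -1.53 as a mean over members, -0.322 without UTP5 and -0.194 without UTP5 and UTP20, the last 2 chosen after seeing the data. The difference in summed level, 982.7 CPM, was -275.0 to 2240.3 CPM with 1 library left out, 42.8 CPM without RLP24 and 694.4 CPM without RLP24 and NOP10, both also chosen after seeing the data. The cause of these shifts was not tested. A mean of the summed level was not run, as it is the sum divided by the members. With 2 libraries per medium and few reads in genes such as IMP4, RRP45 and UTP6, small changes were not detectable.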

Other observations

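Reads on the strand opposite to the reading frames of the members numbered 7005. Of these, 6826 (97.4%) were assigned to an annotated gene on that strand, counting the window past its stop codon as part of the gene. Most of those belong to convergent neighbours, such as TRM3 opposite RRP42, RIB4 opposite NOP8 and HTA2 opposite UTP20. Of the 179 reads held by no such gene, 78 lay opposite RRP6. They came to 5.40 and 7.68 CPM in minimal medium, against 16.4 and 19.1 CPM in rich medium, while the sense reads of RRP6 came to 96.2 and 74.2 CPM in minimal medium, against 49.3 and 38.3 CPM in rich medium. Both minimal medium libraries were below both rich medium libraries on the antisense strand and above them on the sense strand. The antisense counts were not tested.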
